A study of Mus musculus with 6 samples.

Results

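The genes described here are the LDL receptor related proteins, a family of membrane receptors, measured in the mouse liver tumour line HCC3-4, which came from MYC transgenic animals. Of 9 genes chosen by family name (Lrp1, Lrp4, Lrp5, Lrp6, Lrp8, Lrp10, Lrp11, Lrp12 and Vldlr), 8 were among the 11866 genes with a value, and all 8 passed the filter of a mean of at least 1 FPKM (fragment counts scaled by gene length and library size) that left 10770 genes for testing. Vldlr was not analysed here. Poly(A)-captured RNA was sequenced in 6 libraries, 3 from cells stably carrying a short hairpin RNA against Sf3b3 (KD) and 3 from cells with the pLKO.1-TRC control vector (PLKO), numbered 1 to 3 in each group. Sf3b3 codes for a component of SF3b, which helps the spliceosome recognise intron branch points, and the series asks how SF3B3 acts on splicing of the bile acid receptor FXR in this cancer. The labels name 1 hairpin and no rescue, so lower Sf3b3 and other differences between the cell populations cannot be told apart, and nothing in them says that a group's libraries were grown as separate cultures. P-values therefore measure only how these libraries spread, and that spread may be technical. The family was picked out because Lrp11 was near 0 in PLKO and higher in KD. The differences between KD and PLKO of its members are therefore given as descriptions with standard errors (SE) and without p-values.

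LDL receptor related proteins share an outer part built from cysteine-rich ligand-binding repeats, and most of them carry propeller domains that release the ligand in acid endosomes. LRP1 is a large scavenger receptor that clears lipoprotein remnants and protease complexes, in the liver above all. LRP5 and LRP6 are the co-receptors of Frizzled proteins in Wnt signalling, LRP8 and VLDLR bind reelin and apolipoprotein E, and LRP4 is the agrin receptor of the neuromuscular junction. LRP10 and LRP12 form a branch with CUB domains, and LRP11 is a small member whose function is poorly known.

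Sequences upstream of transcription starts are shown for Lrp11 and Lrp1, which lie on the same chromosome and differ most in level in the control cells. They come from RefSeq's GRCm38.p6 table, in which 5 of the 9 genes matched, and are cut where annotated exons begin. The Lrp11 stretch is chr10:7589567-7589799 on the plus strand and the Lrp1 stretch chr10:127621149-127621398 on the minus strand. Capitals mark the GC box GGGCGG, read on either strand.
Lrp11: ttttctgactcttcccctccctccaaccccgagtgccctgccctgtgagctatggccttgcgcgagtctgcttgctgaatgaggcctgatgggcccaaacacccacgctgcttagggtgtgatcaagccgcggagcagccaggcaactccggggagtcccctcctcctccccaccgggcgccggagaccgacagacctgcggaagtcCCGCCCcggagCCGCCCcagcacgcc
Lrp1: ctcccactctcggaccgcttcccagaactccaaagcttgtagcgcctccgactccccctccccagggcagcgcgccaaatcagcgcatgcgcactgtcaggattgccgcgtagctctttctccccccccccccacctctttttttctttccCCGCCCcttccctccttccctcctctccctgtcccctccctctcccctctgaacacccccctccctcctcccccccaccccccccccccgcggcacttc
The Lrp11 stretch of 233 bases held 2 GC boxes and the Lrp1 stretch of 250 bases held 1, and 32.7% of the 32851 RefSeq promoter windows of 250 bases held at least 1. On either strand, neither stretch held the E-box CACGTG, which MYC binds (6.02% of all windows), the AP-1 site TGANTCA (6.75%), the amino acid response element TGATGNAA (3.45%), the cAMP response motif TGACGT (6.47%), CCAAT (33.8%) or TATAAA (12.4%). These letters are a description of the windows and were not set against binding data. The stretches of the other members that matched, Lrp8, Lrp10 and Vldlr, held 0 GC boxes.

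Reads on listed genes, recovered from the deposited values, came to between 15140441 and 17566101 per library. The libraries numbered 3 stood apart from the others in both groups: deviations from the group means correlated at 0.50 between PLKO 3 and KD 3 over the tested genes, and between -0.43 and -0.28 for either of them against libraries 1 and 2 of the other group. Deviations cancel out within a group, so the negative values follow in large part from the 0.50. Each member is therefore given with and without the pair numbered 3. Sf3b3 itself averaged 26.9 ± 3.67 FPKM in PLKO and 11.3 ± 2.33 FPKM in KD (SD, n = 3 each) and so fell, with a log2 difference of -1.26 (SE 0.23, limma adjusted p = 0.037). That call was lost without PLKO 1, PLKO 2, KD 1 or KD 2 (limma adjusted p = 0.12, 0.13, 0.15 and 0.19). Of the hepatocyte markers Alb, Ttr, Apoa1 and Hnf4a, none was among the listed genes, and they were not analysed here. The bile duct markers Krt19 and Sox9, 2 of 4, summed to 54.1 to 80.7 FPKM in PLKO and 63.2 to 70.6 FPKM in KD. Krt7 and Epcam were not listed, and Sox9 alone had a mean log2 FPKM of 5.90 over the 6 libraries. The fibroblast markers Pdgfrb, Col1a1 and Col1a2, 3 of 4, summed to 56.5 to 81.1 FPKM in PLKO and 25.3 to 42.3 FPKM in KD. Lrat was not listed. These 2 ranges did not overlap, and 18.8% of all tested genes were lower in KD without overlap. None of the tested fibroblast markers was called by limma, and 1 was called lower with the library number as a block. The B cell gene Cd79a, the 1 leukocyte marker of 4 that was listed, was at 0.0828 to 0.950 FPKM in PLKO (0 to 20 reads) and 2.51 to 4.88 FPKM in KD (62 to 108 reads). At 0 reads the value reflects only the prior of about 2 reads in the deposited values. Cd79a was called higher in KD by limma, as were 1.12% of all tested genes, and in 10 of 14 alternatives. Its log2 difference of 3.77 was larger than that of Lrp11. No endothelial or neuronal marker of 4 each was listed. The part of these markers in the results below was not tested, and in bulk RNA fewer cells of a type and less RNA per cell cannot be told apart.

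Lrp11 had the lowest level of the family in PLKO and ranked between Lrp12 and Lrp4 in KD. It stood at 0.714, 0.630 and 0.386 FPKM in PLKO 1, 2 and 3 (42, 34 and 19 reads) and at 8.47, 7.72 and 3.75 FPKM in KD 1, 2 and 3 (446, 416 and 223 reads). Every KD library was far above every PLKO library, and in both groups library 3 was the lowest. The means were 0.577 ± 0.170 FPKM in PLKO and 6.65 ± 2.54 FPKM in KD (SD, n = 3 each), a ratio of 11.5. On the deposited log2 scale, which holds a prior of about 2 reads, the difference was 3.49 (SE 0.42). Taken from reads per scaled library the log2 ratio was 3.61, and on the log2(FPKM + 1) scale, which compresses low levels, the difference was 2.22. Within library numbers 1, 2 and 3 the log2 difference was 3.57, 3.61 and 3.28, and without the libraries numbered 3 it was 3.59 (SE 0.27). The difference was thus close to the same in each pair of numbers although the levels in the libraries numbered 3 were lower.

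Among the 10770 tested genes, 10 had a larger log2 difference than Lrp11, whereas 65 genes (0.604%) had a lower mean log2 FPKM in PLKO and 3941 genes (36.6%) a lower one in KD. The filter takes the mean over all 6 libraries, and Lrp11, at 0.577 FPKM in PLKO, passed it only through KD (6.65 FPKM). Listed genes that were low in both groups were left out, so the PLKO share follows in part from the filter. Lrp11 (ENSMUSG00000019796.12) spans chromosome 10 from 7589800 to 7625483 on the plus strand in GRCm38, with 5 annotated transcripts and an exonic length of 3418 bases. The predicted gene Gm16254 overlaps it on the opposite strand. Whether the counting used strand is not given in the sources used here, so reads of the 2 genes cannot be told apart.

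**Figure D1:**
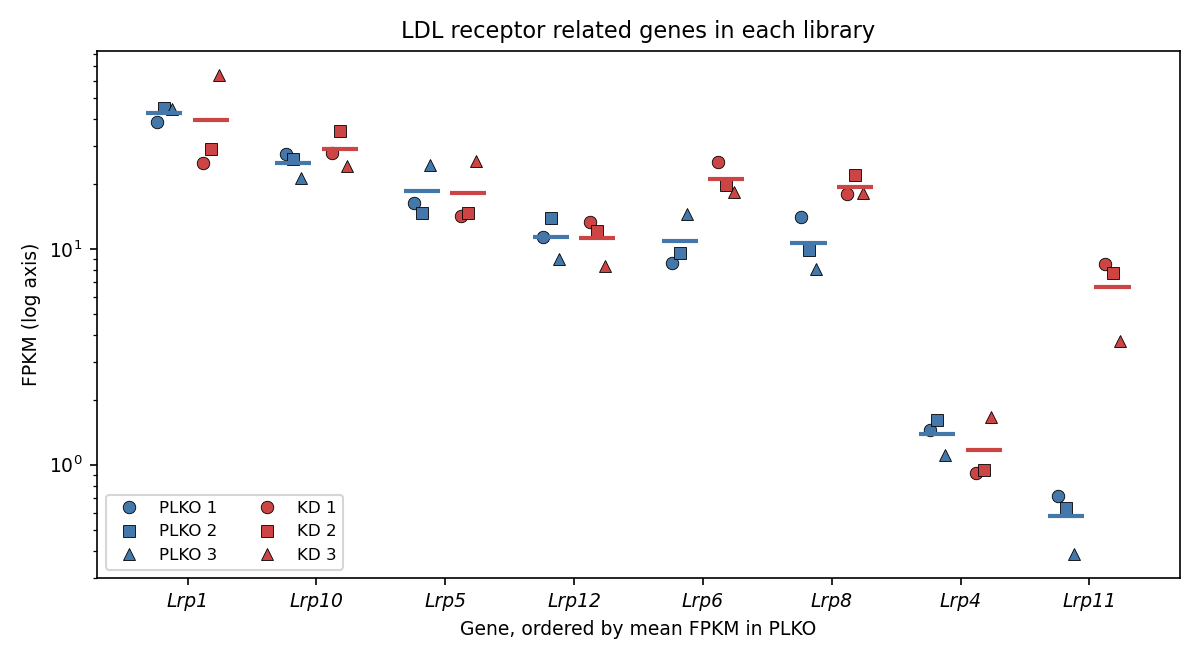
Levels of the 8 LDL receptor related genes in FPKM (log axis) in each PLKO (blue) and KD (red) library, with circles, squares and triangles for libraries 1, 2 and 3 and bars for group means. Lrp11 moves from 0.577 FPKM in PLKO to 6.65 FPKM in KD, and Lrp6 and Lrp8 are the other genes whose groups do not overlap.

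Lrp6, a Wnt co-receptor, and Lrp8, a reelin and apolipoprotein E receptor, were about 2-fold higher in KD. Lrp6 was at 8.58, 9.55 and 14.5 FPKM in PLKO 1, 2 and 3 and at 25.2, 19.8 and 18.3 FPKM in KD 1, 2 and 3. The KD libraries lay above all PLKO libraries, and the gap was narrowest between PLKO 3 and KD 3. Its means of 10.9 ± 3.16 and 21.1 ± 3.62 FPKM (SD, n = 3 each) gave a ratio of 1.94 and a log2 difference of 0.98 (SE 0.26). By library number the log2 difference of Lrp6 was 1.55, 1.05 and 0.34, and without the libraries numbered 3 it was 1.30 (SE 0.23).

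Lrp8 was at 14.04, 9.83 and 8.09 FPKM in PLKO and at 17.9, 21.9 and 18.1 FPKM in KD. Here too the groups did not overlap, with PLKO 1 nearest to the KD libraries. The means were 10.7 ± 3.06 and 19.3 ± 2.24 FPKM (SD, n = 3 each), a ratio of 1.81 and a log2 difference of 0.89 (SE 0.25), or 0.75 (SE 0.25) without the libraries numbered 3. By library number the difference was 0.35, 1.16 and 1.17. The pair numbered 1, in which Lrp6 differed most, was thus the one in which Lrp8 differed least. Lrp8 (chromosome 4, from 107802261 to 107876840, plus strand) overlaps the antisense genes Lrp8os1 and Lrp8os2, so its reads can include theirs. Lrp6 (chromosome 6, from 134446476 to 134566965, minus strand) overlaps no annotated gene.

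Lrp5, the close relative of Lrp6, had nearly equal means. It was at 16.3, 14.6 and 24.5 FPKM in PLKO and at 14.2, 14.6 and 25.6 FPKM in KD, and in each group library 3 was the highest. The means of 18.5 ± 5.27 and 18.1 ± 6.47 FPKM (SD, n = 3 each) gave a log2 difference of -0.05 (SE 0.30), with a 95% confidence interval from -0.72 to 0.63. The interval holds differences in either direction, so the data do not show that Lrp5 was alike in both groups. Within library numbers its log2 difference was -0.20, -0.01 and 0.06, and without the libraries numbered 3 it was -0.10.

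Lrp1, the scavenger receptor and the most abundant member, gave opposite differences in different library pairs. It was at 38.5, 44.8 and 44.3 FPKM in PLKO and at 25.01, 29.1 and 64.0 FPKM in KD. KD 1 and KD 2 lay below every PLKO library and KD 3 above every one. The means, 42.6 ± 3.48 and 39.4 ± 21.5 FPKM (SD, n = 3 each), differed by -0.24 (SE 0.33) on the log2 scale. Without the libraries numbered 3 the difference was -0.62 (SE 0.23), and without KD 1 it was 0.02. The values rest on 6850 to 19916 reads per library.

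Lrp4, the agrin receptor, showed the same split between KD libraries at a far lower level. It was at 1.44, 1.62 and 1.11 FPKM in PLKO and at 0.917, 0.949 and 1.66 FPKM in KD, from 147 to 304 reads per library. Again KD 1 and KD 2 were below all PLKO libraries and KD 3 was above them. The means of 1.39 ± 0.260 and 1.18 ± 0.420 FPKM (SD, n = 3 each) differed by -0.28 (SE 0.40) on the log2 scale, and by -0.71 (SE 0.34) without the libraries numbered 3. Leaving out 1 library, the Lrp1 difference was -0.65 without KD 3 and -0.09 without KD 2, and the Lrp4 difference was -0.56 without KD 3, -0.43 without PLKO 3, -0.16 without PLKO 2, -0.13 without KD 1 and -0.15 without KD 2.

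The CUB domain members Lrp10 and Lrp12 overlapped between the groups. Lrp10, a sorting receptor that cycles between the Golgi network and endosomes, was at 27.4, 26.2 and 21.4 FPKM in PLKO and at 27.8, 35.3 and 24.1 FPKM in KD, a log2 difference of 0.21 (SE 0.22) with a 95% interval from -0.29 to 0.71. Lrp12 was at 11.4, 13.9 and 8.96 FPKM in PLKO and at 13.3, 12.1 and 8.31 FPKM in KD, a log2 difference of -0.02 (SE 0.26) with an interval from -0.62 to 0.57. For both genes library 3 was the lowest in each group, and without the libraries numbered 3 the log2 differences were 0.22 for Lrp10 and 0.02 for Lrp12. Lrp10 and Lrp1 each overlap a predicted gene on the opposite strand (Gm10366 and Gm16217), and Lrp12 overlaps none.

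**Figure D2:**
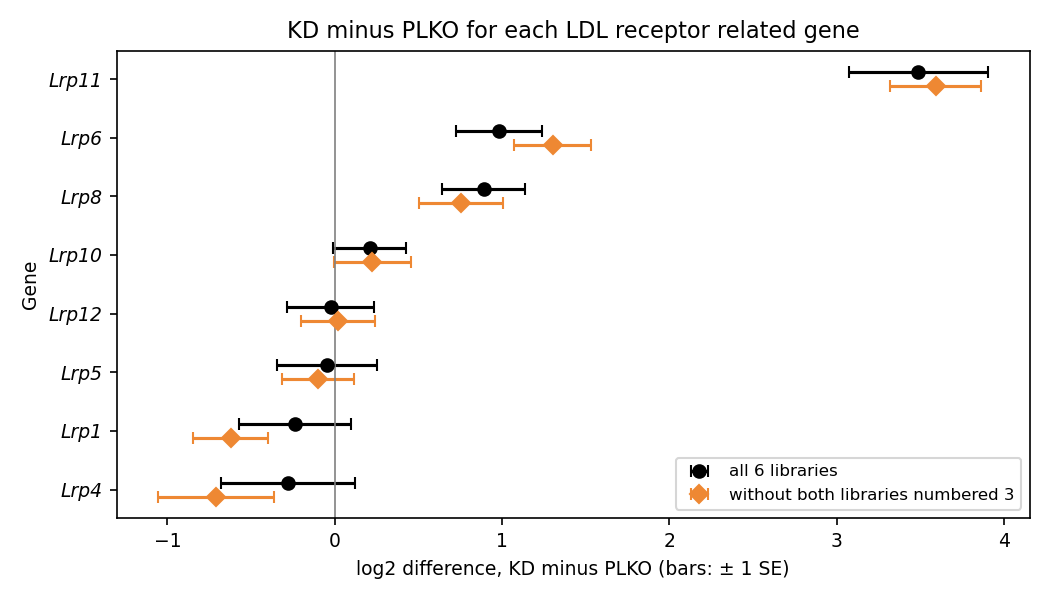
Log2 difference between KD and PLKO for each gene with bars of 1 SE, from all 6 libraries (black circles) and without both libraries numbered 3 (orange diamonds). Lrp11 stands at 3.49 and 3.59, and its relatives lie between -0.28 and 0.98 with all libraries.

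Over the 8 genes, 4 had a positive and 4 a negative log2 difference. The median was 0.09, against -0.04 over all tested genes, and -0.02 over the 7 relatives of Lrp11. With adjusted p under 0.05 over all tested genes (limma), 1 of the 8 members was called, Lrp11, where 2.92% of all tested genes were called (1.12% higher and 1.79% lower in KD). With the library number as a block, 3 were called (Lrp11, Lrp6 and Lrp8), where 19.3% of all tested genes were. The groups did not overlap for these 3 genes, all higher in KD, against 32.1% of all tested genes (13.4% higher and 18.8% lower in KD). As the family was chosen with this contrast in view, nothing is read from these counts. Without PLKO 1, PLKO 2, KD 1 or KD 2 no member and no other gene was called by limma, although 1793 to 2315 genes had an unadjusted p under 0.05, and without both libraries numbered 3 Lrp11 and Lrp6 were called, both higher in KD, against 27.9% of all tested genes (11.9% higher and 16.0% lower in KD).

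**Figure D3:**
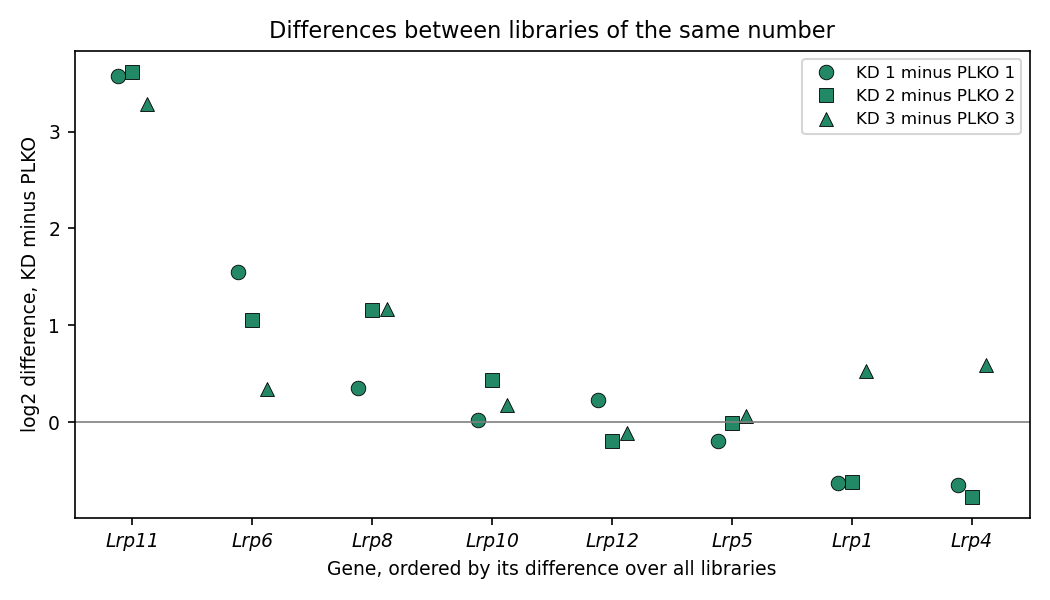
Log2 difference between the KD and the PLKO library of the same number for each gene, with circles, squares and triangles for numbers 1, 2 and 3. Lrp11 stays between 3.28 and 3.61, whereas Lrp1 and Lrp4 are negative for numbers 1 and 2 and positive for number 3.

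**Figure D4:**
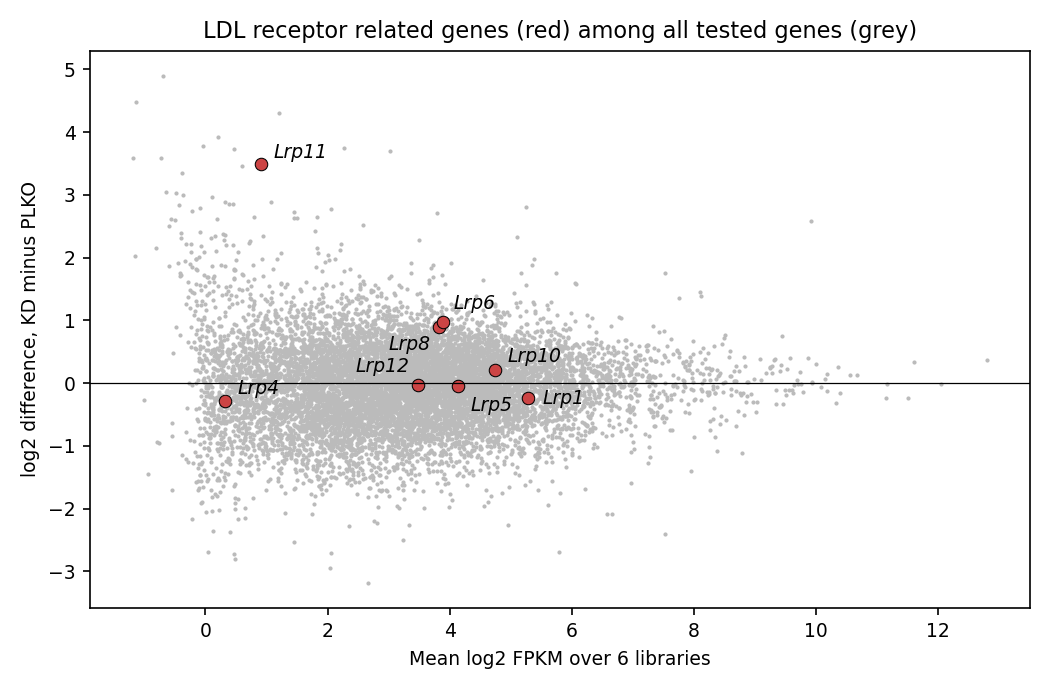
Log2 difference between KD and PLKO against mean log2 FPKM over 6 libraries for the 10770 tested genes (grey) and the 8 LDL receptor related genes (red). Lrp11 lies at the upper edge at a low mean level, and the other 7 genes lie within the body of the cloud.

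The order of levels within the family changed with the group. FPKM is scaled by gene length, so levels can be set side by side. In PLKO the order by mean FPKM was Lrp1, Lrp10, Lrp5, Lrp12, Lrp6, Lrp8, Lrp4 and Lrp11. Library values did not overlap between Lrp1 and Lrp10, Lrp5 and Lrp12, Lrp8 and Lrp4, or Lrp4 and Lrp11, and they did overlap between the other neighbours in this order. In KD the order was Lrp1, Lrp10, Lrp6, Lrp8, Lrp5, Lrp12, Lrp11 and Lrp4. There, neighbours overlapped except Lrp5 with Lrp12 and Lrp11 with Lrp4, and Lrp1 overlapped Lrp10 because KD 1 and KD 2 held less of it. Summed over the 8 genes the level was 118.4, 121.2 and 123.2 FPKM in PLKO and 132.8, 141.5 and 163.9 FPKM in KD. Lrp1 made up 32.6% to 37.0% of that sum in PLKO, but 18.8%, 20.6% and 39.1% in KD 1, 2 and 3. The share of Lrp11 was 0.603%, 0.520% and 0.314% in PLKO and 6.38%, 5.46% and 2.29% in KD.

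Genes that work with these receptors were taken from 6 lists of ligands, adaptors and signalling partners, with 85 tested genes of 118 named. Of these 85, 1 rose and none fell (limma adjusted p under 0.05 over all tested genes; 20 had an unadjusted p under 0.05, as did 27.6% of all tested genes), against 1.12% of all tested genes higher and 1.79% lower. With the library number as a block, 10 were higher and 7 lower, 20.0% of the 85, against 8.19% and 11.1% of all tested genes. The groups did not overlap for 9 genes higher and 9 lower in KD, 10.6% of the 85 each way, against 13.4% and 18.8% of all tested genes.

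The 1 gene that rose was Furin, the proprotein convertase that cleaves the LRP1 precursor into its chains. It was at 13.6, 15.8 and 14.2 FPKM in PLKO and at 32.4, 32.2 and 24.2 FPKM in KD, a log2 difference of 1.02 (SE 0.21, limma adjusted p = 0.044). All KD libraries were above all PLKO libraries. The call was lost without PLKO 1, PLKO 2, KD 1 or KD 2 at limma adjusted p = 0.14, 0.13, 0.17 and 0.20, while the log2 difference stayed between 0.95 and 1.16 over the 14 alternatives. Furin, Dab2, Fzd3, App, Timp3 and Ldlrad3 each overlap another annotated gene, whose reads may be counted with theirs.

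Furin belongs to the list of receptor chaperones, adaptors and recycling factors, which had 15 tested genes and a median log2 difference of 0.22 (-0.04 over all tested genes). Dab2, whose protein is an endocytic adaptor that binds the tails of LDL receptor family members, was at 11.4, 5.85 and 9.78 FPKM in PLKO and at 18.05, 22.4 and 18.3 FPKM in KD. Its groups did not overlap, and its log2 difference of 1.17 lay outside the threshold (limma adjusted p = 0.057; under the block 0.012). Lrpap1, the chaperone that keeps ligands off newly made receptors, had a log2 difference of -0.71 (limma adjusted p = 0.15; under the block 0.039). Mesd, the chaperone of LRP5 and LRP6, was at -0.40 (limma adjusted p = 0.27), and is named here after its values were seen.

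None of 25 tested Wnt partners of LRP5 and LRP6 was called by limma (4 had an unadjusted p under 0.05), and the median log2 difference of this list was 0.02. The Frizzled receptor gene Fzd3 came nearest, at 1.52, 1.62 and 2.38 FPKM in PLKO and 8.02, 6.15 and 3.38 FPKM in KD. Its groups did not overlap, and its log2 difference of 1.61 (SE 0.37) had a limma adjusted p of 0.051, or 0.0096 with the block. Fzd9, Csnk1g1 and Gsk3a had log2 differences of -1.07, 0.52 and 0.57 (limma adjusted p = 0.16, 0.16 and 0.17), and under the block Fzd9 was called lower at a limma adjusted p of 0.024.

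Among 19 tested ligands the median log2 difference was 0.38 and none was called by limma (7 had an unadjusted p under 0.05), with 5 higher and 2 lower under the block, against 8.19% and 11.1% of all tested genes. Plau, which codes for the plasminogen activator urokinase, a ligand that LRP1 clears, had a log2 difference of 0.89 (limma adjusted p = 0.058, and 0.017 under the block). Ctgf, a matrix protein that binds LRP1, was at 2.69, 2.24 and 26.7 FPKM in PLKO and 26.6, 29.4 and 58.4 FPKM in KD, so that PLKO 3 lay within the KD range (log2 difference 2.72, limma adjusted p = 0.084; under the block 0.0019). App, the amyloid precursor that LRP1 internalises, had a log2 difference of -1.01 (limma adjusted p = 0.074; under the block 0.012).

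Of 11 tested genes of ectodomain shedding and gamma-secretase, 10 had a negative log2 difference, as did 52.3% of all tested genes, and the median was -0.45. The list holds genes for the cutting of these receptors and also Timp3, which codes for an inhibitor of sheddases. None was called by limma (3 had an unadjusted p under 0.05), and Adam10 and Timp3 were called lower with the block, against 11.1% of all tested genes. Adam10, a sheddase, was at 41.3, 36.8 and 51.3 FPKM in PLKO and 22.4, 22.7 and 30.7 FPKM in KD (log2 difference -0.77, limma adjusted p = 0.076; under the block 0.025), and Timp3 had -0.88 (limma adjusted p = 0.17; under the block 0.025). Adam17 and Ncstn had log2 differences of -0.53 and -0.65 (limma adjusted p = 0.17 and 0.19). In the list of reelin and agrin signalling, 10 genes were tested, the median was 0.15, and none was called by limma with or without the block (1 had an unadjusted p under 0.05), with Crkl, Yes1, Src and Fyn at 0.59, 0.40, 0.48 and -0.34 (limma adjusted p from 0.13 to 0.32).

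Other genes of the LDL receptor family were not called by limma either (1 had an unadjusted p under 0.05), and their median log2 difference was 0.00 over 5 tested genes. Lrp3, of the same branch as Lrp10 and Lrp12, had a log2 difference of 0.62 (limma adjusted p = 0.21), and Ldlrad3 and Ldlrad4 had -0.97 and -0.11 (limma adjusted p = 0.11 and 0.83; under the block for Ldlrad3 0.031).

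**Figure D5:**
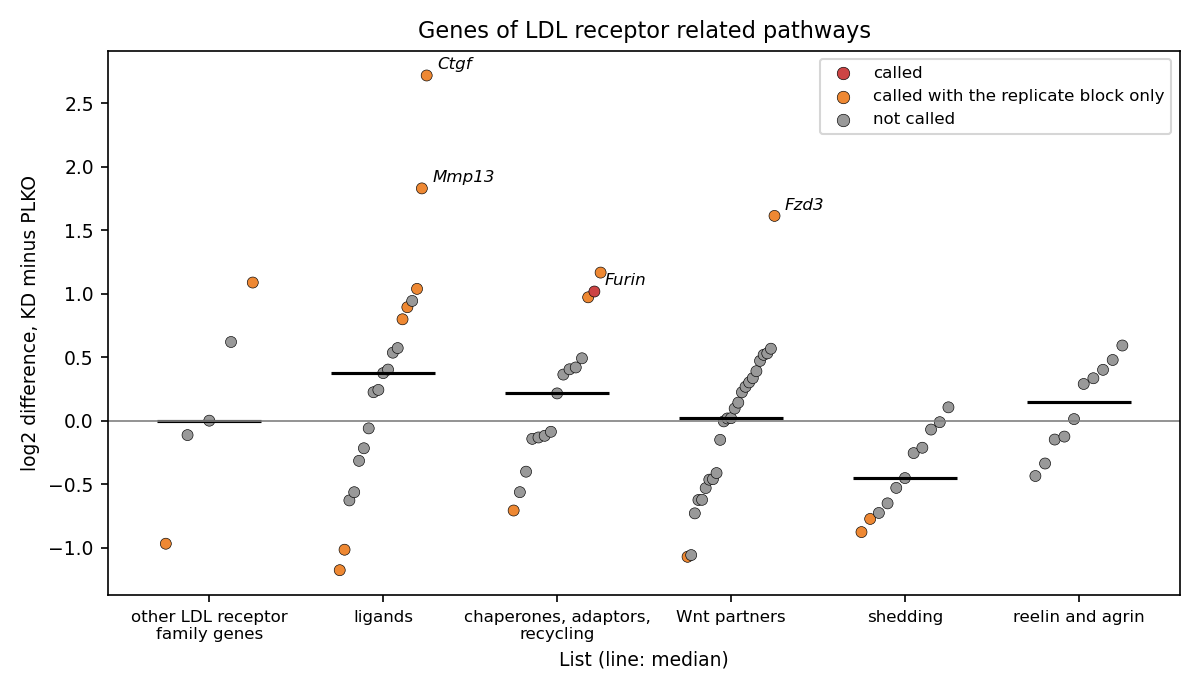
Log2 difference between KD and PLKO for the 85 tested genes of 6 lists, with a line at each list's median; red marks the gene called, orange genes called with the library number as a block only, and grey the others. Furin is the 1 red point, at 1.02.

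The listed genes nearest to Lrp11 on chromosome 10 had log2 differences between -0.70 and 0.63. Upstream lie Rgs17, Cnksr3 and Ulbp1, with log2 differences of 0.37, 0.39 and 0.63, and downstream Pcmt1, Nup43 and Lats1, with 0.33, -0.70 and -0.07. By lower coordinate, the upstream genes start at -1764, -471 and -149 kb from the start of Lrp11. The downstream genes start at 39.6, 77.7 and 91.4 kb from it. None of the 6 was called (limma adjusted p from 0.22 to 0.87, and 0 with an unadjusted p under 0.05), and Nup43, a nuclear pore subunit that overlaps Pcmt1 on the opposite strand, was called lower with the block (limma adjusted p = 0.047). For Cnksr3 and Ulbp1 the groups did not overlap, with KD higher, as for 13.4% of all tested genes. The groups of the other neighbours overlapped. Pcmt1, a protein repair methyltransferase gene on the minus strand and the next listed gene after Lrp11, was at 18.1 ± 3.00 FPKM in PLKO and 22.9 ± 5.09 FPKM in KD (SD, n = 3 each).

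The 5 genes whose profile over the 6 libraries was most like that of Lrp11 were Tmem171, Trim69, Mir3091, Crct1 and Tmem71. Likeness was the root mean square difference between log2 values, each taken from the gene's own PLKO mean, and it was 0.33, 0.36, 0.46, 0.56 and 0.59. These genes were chosen for their likeness to Lrp11 over all 6 libraries, library 3 included. Their difference between the groups and any low level in library 3 are thus part of the choice, and their values are a description. Tmem171, a membrane protein gene, had 15, 11 and 6 PLKO reads against 217, 182 and 51 KD reads, with means of 0.469 and 6.06 FPKM, and as for Lrp11 library 3 was the lowest in both groups. Trim69, a tripartite motif gene, had 14, 8 and 9 PLKO reads against 227, 202 and 77 KD reads. The reads of Mir3091 can belong to Rps21, which overlaps it on the same strand.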

How the data were processed

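Per the submitters' processing notes reads were checked with FastQC 0.11.7 and the genome was GRCm38. The aligner, the counter, the strand setting and the filter on genes were not given in the sources used here. As one table, the authors deposited log2 FPKM per gene and library, with a prior of about 2 reads added before the logarithm, as read from the values. With exonic lengths from GENCODE M21, 11190 of 11866 genes gave whole reads in all libraries (tolerance 0.01 reads), and for 676 a scan over lengths did, so 100% were recovered. A fold change on this scale understates that of genes with few reads.

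The test was limma 3.58.1 (R 4.3.3) on the deposited log2 values with trended prior variance, keeping genes whose mean FPKM was 1 or more. The model held the group alone and left 4 residual degrees of freedom. Genes with a Benjamini-Hochberg adjusted p under 0.05 over 10770 genes were called. FPKM are powers of 2 of the deposited values. The fit was tested on simulated data. Noise there was drawn independently for each gene and library, without the shared deviation of the libraries numbered 3. The simulation thus says nothing on how that deviation affects the calls. Members, lists and tests were chosen with earlier results of these data known. Named genes were all members, Sf3b3, up to 4 genes per list with the lowest adjusted p and every called one, 3 listed neighbours of Lrp11 on each side by lower coordinate and the 5 nearest profiles without predicted genes. Equal library numbers were taken as pairs, with deviations from group means that correlated at 0.18, 0.29 and 0.50. This pairing comes from the data and is not clean, since libraries 1 and 2 correlated across groups as well (0.27 for PLKO 1 and KD 2, 0.30 for PLKO 2 and KD 1). As deviations cancel out within a group, the positive values among libraries 1 and 2 also follow in part from the 0.50. They do not show which of libraries 1 and 2 belong together. The block and the differences by library number therefore rest on the numbering. The 14 alternatives were the log2(FPKM + 1) scale, no filter, leaving out each library and both numbered 3, the replicate block, quantile normalization, median centring, array weights, and voom on recovered reads. Some genes that the rule names are not reported here, although the counts of their lists include them. Protein features were planned and not computed.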

Additional observations from a re-analysis of the deposited data

How the results depend on the processing

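The number of called genes, 314, was 801 without PLKO 3, 1744 without KD 3 and 0 without each of the other 4 libraries, a range of 0 to 1744. It was 3009 without both libraries numbered 3, 2080 with the replicate block and 3599 with array weights, which were fitted gene by gene because the default did not converge. Members called, 1, ranged from 0 to 2 with a library left out, and were 2 without both libraries numbered 3, 3 with the replicate block and 3 with array weights. Called genes in the 6 lists, 1, ranged from 0 to 14, and were 26, 17 and 30 in those fits, 2 on the log2(FPKM + 1) scale and with quantile normalization, and 3 with median centring and with voom on recovered reads. Of the 6 neighbours of Lrp11, 0 were called, and 1 was without both libraries numbered 3, with the replicate block and with array weights. The log2 difference of Lrp11 was 2.22 on the log2(FPKM + 1) scale and ran from 3.22 to 3.86 with a library left out. That of Sf3b3 ran from -1.43 to -1.15, with limma adjusted p up to 0.19. Over the 14 alternatives the members' differences moved by less than the spread between libraries in 110 cases and by more in 2, Lrp11 on the log2(FPKM + 1) scale and Lrp4 without both libraries numbered 3 (-0.71). Leaving out a single library cannot move a difference by more than that spread. The replicate block and the fit without a filter leave it unchanged. The outcome of those cases was thus fixed in advance, and nothing is read from the count. No called gene named in the text changed sign. Depth limits Lrp11 in PLKO, where 19 to 42 reads per library stand behind its level.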
